A study of Drosophila melanogaster with 12 samples.

Results

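Glia and the blood-brain barrier are described here through 32 genes: markers and effectors of astrocytes, cortex glia, surface glia and septate junctions, and the genes with which glia engulf debris. The genes were listed by name, and 29 of the 32 were measured by a probe set of their own, out of 11953 genes with such a probe set on the array. No probe set used here names the glutamate transporter gene Eaat1, the transcription factor gene pnt or the engulfment gene mbc, so these 3 were not analysed here. All 29 measured genes reached the level needed for testing, and each gene is represented by its probe set of highest mean signal over the 12 arrays.

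The arrays measured messenger RNA in dissected brains of female Drosophila melanogaster aged 3 days, in which elav-GAL4 drove UAS-DsRed transgenes that differ in the 3' untranslated region. UAS-DsRed-CAG100 carries 100 CAG units and was present in 5 copies, UAS-DsRed-CAA/G105 carries a CAG run interrupted by CAA in 2 copies, and UAS-DsRed-CAG0 carries no repeat in 1 copy. Every genotype carries the driver and DsRed, elav-GAL4 is a neuronal driver, and the copies were chosen to match reporter mRNA, so repeat and copy number cannot be told apart. The series text calls CAG100 RNA toxic and CAA/G105 RNA non-toxic. Each genotype had 4 arrays, and each sample pooled about 20 brains from which eyes, lamina and outer medulla had been removed. Values are deposited log2 signals on which a difference of 1 is a 2-fold change, and each difference comes from limma with its SE. A difference passed where limma's p, adjusted by the Benjamini-Hochberg method over 8966 tested probe sets, was under 0.05. A probe set's level depends on its probes, so levels were compared between genotypes and not between genes.

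Insect glia fall into types by position. Astrocyte-like glia enter the synaptic neuropil and clear transmitters, cortex glia wrap the cell bodies, and ensheathing glia line the neuropil and remove debris. Perineurial and subperineurial glia form the blood-brain barrier, where subperineurial cells are sealed by septate junctions made of claudins, neurexin, contactin and cytoplasmic scaffolds, and transporters carry sugars in and toxins out. Injured axons are engulfed through the receptor Draper, its kinase Shark, the adaptor Ced-6 and the Rac activators Ced-12 and Mbc.

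On 3 arrays the gland hormone gene Akh read under log2 4, namely CAG100 replicates 1 and 3 and CAA/G105 replicate 3, against 11.04 to 13.00 on the other 9, and results are also given without these Akh-negative arrays. That setting keeps only replicates 2 and 4 of CAG100, so a call can be lost there without a smaller difference. The glial transcription factor gene repo read 13.23 to 13.50 and all 8 measured neuronal markers were tested, and none passed in any comparison. Their summed log2 signal spanned 16.34 to 16.44 in CAG100, 16.35 to 16.47 in CAA/G105 and 16.39 to 16.43 in CAG0. Markers of other tissue were present as well. Summed signals of 7 haemocyte markers spanned 13.80 to 14.09 in CAG100, 13.14 to 13.63 in CAA/G105 and 13.64 to 14.35 in CAG0, and Hml, PPO1 and PPO2 were lower in CAA/G105 than in CAG0. PPO1 (0.86 ± 0.23, adjusted p = 0.0196) and PPO2 (1.01 ± 0.18, adjusted p = 0.00151) were higher in CAG100 than in CAA/G105. Fat body markers (6 measured, Fbp1 and Fbp2 under log2 4 on every array) spanned 16.05 to 16.22, 15.81 to 15.97 and 15.74 to 16.20 in CAG100, CAA/G105 and CAG0. Of these, Lsp2 read 3.46 to 5.30 in CAG100, 4.63 to 5.82 in CAA/G105 and 5.89 to 9.92 in CAG0. Its differences from CAG0 did not pass, at -2.35 ± 0.76 in CAG100 (adjusted p = 0.0507) and -2.18 ± 0.76 in CAA/G105 (adjusted p = 0.0845). Yp1, Yp2 and Yp3 of both repeats overlapped CAG0. Muscle markers (7 measured, TpnC4 under log2 4 on every array) spanned 10.90 to 11.57, 10.21 to 12.39 and 10.87 to 11.71, and photoreceptor markers (5 measured) spanned 13.99 to 14.87, 13.86 to 14.78 and 14.42 to 14.86, in the same order. The flight muscle gene fln read 9.90 to 9.95 in CAG100, 7.77 to 8.12 in CAA/G105 and 9.78 to 10.22 in CAG0. For fln, CAA/G105 was 3.88-fold below CAG0 (-1.96 ± 0.11, adjusted p = 6.91e-08) and CAG100 3.82-fold above CAA/G105 (1.94 ± 0.11, adjusted p = 7.14e-08). The other tested muscle markers went the other way in CAA/G105 against CAG0, and none passed (adjusted p = 0.708 to 0.893). They were Mf (0.33 ± 0.56), Mlp84B (0.14 ± 0.19), up (0.42 ± 1.26) and Tm2 (0.31 ± 1.01). Their means were also higher in CAA/G105 than in CAG100, where none passed either. The yolk protein gene Yp3 of the fat body was higher in CAG100 than in CAA/G105 (0.37 ± 0.11, adjusted p = 0.0377). The part of these markers of other tissue in the results on glial genes was not tested.

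Without regard to sign, the median difference of the glial genes was 0.08 in CAG100 against CAG0, beside 0.12 over all tested probe sets. It was 0.09 beside 0.10 in CAA/G105 against CAG0, and 0.08 beside 0.13 in CAG100 against CAA/G105. The median level of the members was log2 12.45, beside 10.41 over all tested probe sets, and its part in these sizes was not tested. In CAG100 against CAG0, 2 of 29 were higher (Shark and ogre) and 3 lower (drpr, alrm and vari), which is 17.2% of the members beside 18.3% of all tested probe sets (7.86% higher and 10.4% lower). In CAA/G105 against CAG0, 4 were higher (repo, moody, Mdr65 and Ced-12) and 1 lower (drpr), or 17.2% beside 13.2% (5.49% higher and 7.72% lower). In CAG100 against CAA/G105, 3 were higher (Shark, axo and zyd) and 3 lower (Tret1-1, alrm and repo), or 20.7% beside 20.8% (10.4% higher and 10.5% lower). In all, 12 genes passed in at least 1 comparison and 17 in none, and no gene passed in all 3. The matching shares of all tested probe sets are not given, so these counts only describe the members. The comparisons with CAG0 share its 4 arrays.

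Counted by arrays alone, 4 members lay above on every CAG100 array and 3 below on every one, each against all CAG0 arrays, beside 9.31% and 11.5% of tested probe sets (20.8% in either direction). In CAA/G105 against CAG0, 5 lay above and 3 below, beside 7.96% and 9.68% (17.6% in either direction). In CAG100 against CAA/G105, 4 lay above and 5 below, beside 12.2% and 13.2% (25.4% in either direction).

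The median difference of the 29 genes was 0.001 in CAG100 against CAG0, -0.0039 in CAA/G105 against CAG0 and -0.04 in CAG100 against CAA/G105, beside -0.03, -0.01 and -0.02 over all tested probe sets. The differences ran from -0.39 (vari) to 0.52 (Shark), from -0.40 (axo) to 0.27 (moody) and from -0.30 (Tret1-1) to 0.57 (Shark) in the 3 comparisons, and only Shark exceeded 0.5 in size. Replicates lay close together: the median SD within a genotype was 0.07 for these genes and 0.11 for all tested probe sets. In pools of dissected brains, fewer cells of a type, less RNA per cell and differences in the tissue kept cannot be told apart. Without the 3 Akh-negative arrays, with fewer arrays to test, 3 members passed in CAG100 against CAG0, 1 in CAA/G105 against CAG0 and 2 in CAG100 against CAA/G105, beside 10.6%, 9.54% and 10.3% of all tested probe sets.

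**Figure D1:**
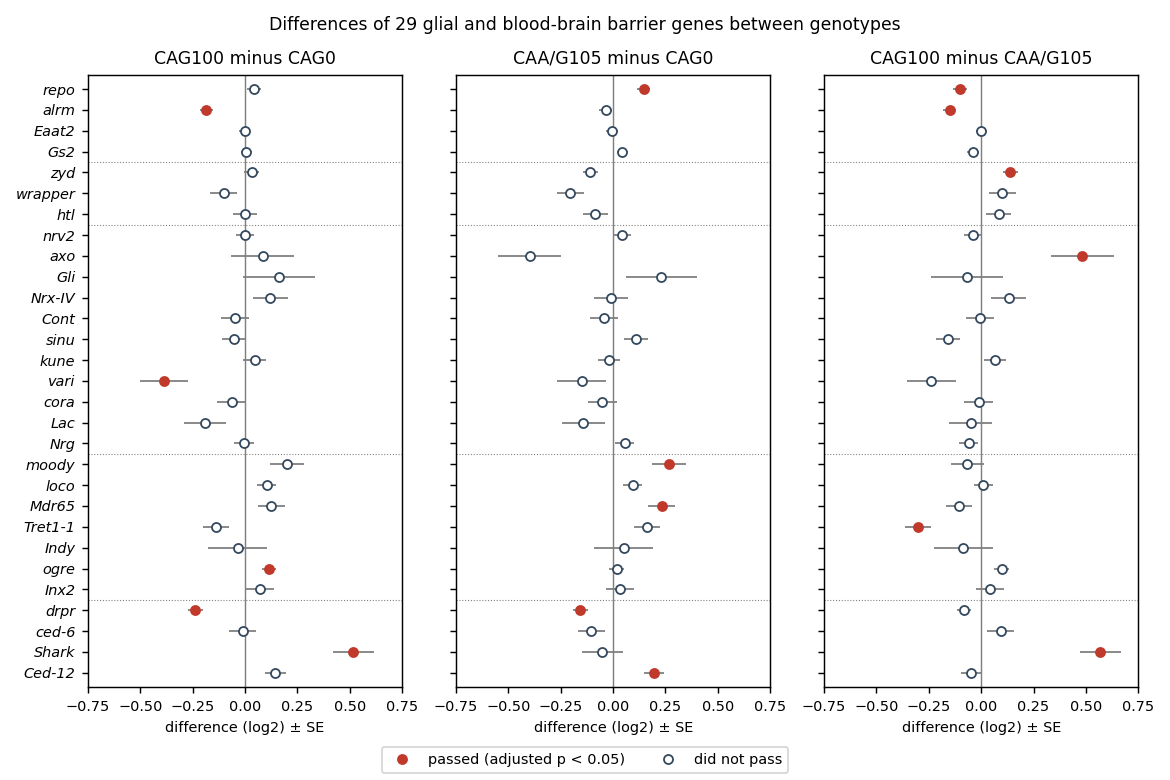
Difference in log2 signal (horizontal axis, ± SE from limma, 12 arrays) for each of the 29 measured genes, in CAG100 minus CAG0, CAA/G105 minus CAG0 and CAG100 minus CAA/G105. Filled points passed (5, 5 and 6 genes), dotted lines part the roles, and the points furthest from 0 are Shark at 0.52 and 0.57.

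Among the engulfment genes the receptor and its kinase moved in opposite directions in CAG100. The kinase gene Shark, whose product binds the Draper receptor in the fly, read 7.50, 7.29, 7.41 and 7.45 on the CAG100 arrays. It read 6.81, 6.95, 6.69 and 6.93 in CAA/G105 and 6.87, 6.71, 6.96 and 7.04 in CAG0. Every CAG100 array lay above all 8 others, while both other genotypes overlapped. Shark was 1.43-fold higher in CAG100 than in CAG0 (0.52 ± 0.10, adjusted p = 0.0033) and 1.48-fold higher than in CAA/G105 (0.57 ± 0.10, adjusted p = 0.00143). CAA/G105 and CAG0 differed by -0.05 ± 0.10 (adjusted p = 0.798). Without the Akh-negative arrays the rise against CAG0 passed (0.47 ± 0.13, adjusted p = 0.0437) and that against CAA/G105 did not (0.48 ± 0.13, adjusted p = 0.0517).

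The engulfment receptor gene drpr read 13.01, 13.00, 12.96 and 12.94 in CAG100, 13.08, 13.12, 13.04 and 13.00 in CAA/G105, and 13.28, 13.19, 13.19 and 13.20 in CAG0. All 8 arrays of both repeats lay below all 4 CAG0 arrays. The gene fell 1.18-fold in CAG100 (-0.24 ± 0.03, adjusted p = 0.000536) and 1.11-fold in CAA/G105 (-0.16 ± 0.03, adjusted p = 0.00952), each against the same CAG0 arrays. The repeats differed from each other by -0.08 ± 0.03, which did not pass (adjusted p = 0.116). The CAG100 result held under every alternative (adjusted p = 0.000272 to 0.012). That in CAA/G105 did not pass with all arrays shifted to the same median (-0.12 ± 0.04, adjusted p = 0.0861) or without the Akh-negative arrays (-0.15 ± 0.04, adjusted p = 0.0569). Haemocytes use drpr too, and the haemocyte markers Hml (-0.88 ± 0.27, adjusted p = 0.0494), PPO1 (-0.84 ± 0.23, adjusted p = 0.0312) and PPO2 (-0.59 ± 0.18, adjusted p = 0.0448) were lower in CAA/G105 than in CAG0, whereas none of the 7 passed in CAG100 against CAG0. Their part in the drpr result was not tested.

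Ced-12, which with Mbc activates the GTPase Rac during engulfment, read 10.33, 10.42, 10.38 and 10.40 in CAG100, 10.47, 10.46, 10.36 and 10.44 in CAA/G105, and 10.25, 10.26, 10.24 and 10.21 in CAG0. Both repeats lay above CAG0 on every array. The difference from CAG0 passed in CAA/G105 (0.19 ± 0.05, 1.14-fold, adjusted p = 0.0186) and narrowly missed in CAG100 (0.15 ± 0.05, adjusted p = 0.0566). The CAA/G105 call was lost without CAA/G105 replicate 1 (adjusted p = 0.0524) or 2 (0.0516) or CAG0 replicate 4 (0.0599). The CAG100 difference passed without CAG100 replicate 1 (adjusted p = 0.0463), after both rescalings (0.0282 with shifted medians and 0.0222 with quantile normalization), with array weights (0.0227), without a variance trend (0.0277) and with no filter (0.0374). The adaptor gene ced-6 read 12.68 to 12.91 in CAG100, 12.62 to 12.75 in CAA/G105 and 12.65 to 12.94 in CAG0, and did not pass (adjusted p = 0.325 to 0.931).

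**Figure D2:**
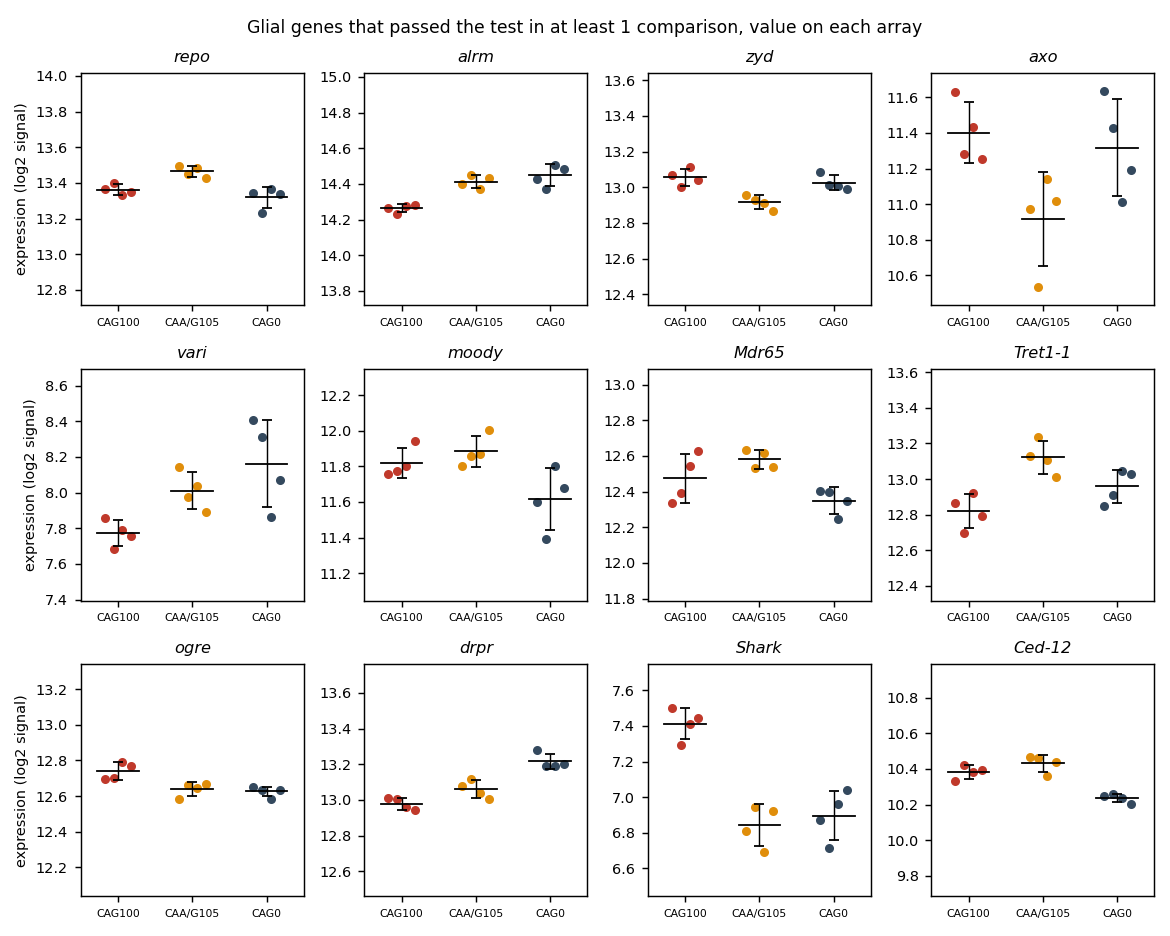
Log2 signal on each of the 4 arrays of CAG100, CAA/G105 and CAG0 (points) with the mean and SD (bars) for the 12 genes that passed in at least 1 comparison; every panel spans the same range of 1.30 log2 units around its own level. Shark stands above both other genotypes in CAG100 and drpr lies lower in both repeats.

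Against CAG0, the astrocyte marker alrm was lower in CAG100 and the pan-glial marker repo was higher in CAA/G105. Both were lower in CAG100 than in CAA/G105. The astrocyte marker gene alrm, which encodes a leucine-rich repeat protein of the cell surface, read 14.26, 14.23, 14.27 and 14.28 in CAG100. It read 14.40, 14.45, 14.37 and 14.43 in CAA/G105 and 14.43, 14.37, 14.51 and 14.48 in CAG0. All CAG100 arrays lay below the other 8, by little in size: 1.14-fold against CAG0 (-0.19 ± 0.03, adjusted p = 0.00128) and 1.11-fold against CAA/G105 (-0.15 ± 0.03, adjusted p = 0.00429). Both results held under every alternative (adjusted p = 0.000215 to 0.0367 and 0.00144 to 0.0357).

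The pan-glial gene repo, a homeodomain factor required for glial fate, read 13.37, 13.40, 13.33 and 13.35 in CAG100, 13.50, 13.45, 13.48 and 13.43 in CAA/G105, and 13.34, 13.23, 13.36 and 13.34 in CAG0. The CAA/G105 arrays were the highest 4 of 12. CAA/G105 exceeded CAG0 1.11-fold (0.15 ± 0.03, adjusted p = 0.0112), a call lost without the Akh-negative arrays (0.14 ± 0.04, adjusted p = 0.0624). It was 1.07-fold lower in CAG100 than in CAA/G105 (-0.10 ± 0.03, adjusted p = 0.0447). That call was lost without any one of CAG100 replicates 1 to 4, CAA/G105 replicates 1, 2 or 3 or CAG0 replicates 1 or 4 (adjusted p = 0.0508 to 0.115), and without the Akh-negative arrays (-0.08 ± 0.05, adjusted p = 0.312). CAG100 and CAG0 differed by 0.04 ± 0.03 (adjusted p = 0.4). The amino acid transporter gene Eaat2 spanned 13.45 to 13.49, 13.43 to 13.52 and 13.42 to 13.50 in CAG100, CAA/G105 and CAG0. Gs2, the glutamine synthetase gene of the glutamate cycle, spanned 14.76 to 14.88, 14.86 to 14.88 and 14.79 to 14.85. Neither passed in any comparison (adjusted p = 0.349 to 0.981).

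Cortex glia were represented by zyd, a sodium, calcium and potassium exchanger gene, wrapper, an immunoglobulin family gene, and the FGF receptor gene htl. In zyd the CAG100 arrays read 13.07, 13.00, 13.11 and 13.04, those of CAA/G105 12.96, 12.93, 12.91 and 12.87, and those of CAG0 13.09, 13.01, 13.01 and 12.99. The CAA/G105 arrays were the lowest 4. CAG100 was 1.1-fold higher than CAA/G105 (0.14 ± 0.03, adjusted p = 0.0134), and CAA/G105 against CAG0 narrowly missed (-0.11 ± 0.03, adjusted p = 0.06). Without the Akh-negative arrays the first was lost (0.10 ± 0.05, adjusted p = 0.214). All 3 genes had negative differences in CAA/G105 against CAG0, of which none passed: wrapper was at -0.20 ± 0.06 (adjusted p = 0.0566) and htl at -0.08 ± 0.06 (adjusted p = 0.413). The wrapper difference passed without CAA/G105 replicate 1 (adjusted p = 0.0466) or CAG0 replicate 3 (0.0368), and with array weights (0.029).

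Septate junction and adhesion genes were the largest set, with 11 measured, of which 1 passed in CAG100 against CAG0, none in CAA/G105 against CAG0 and 1 in CAG100 against CAA/G105, beside 18.3%, 13.2% and 20.8% of all tested probe sets. The scaffold gene vari read 7.86, 7.68, 7.79 and 7.76 in CAG100, 8.14, 7.98, 8.04 and 7.89 in CAA/G105, and 8.41, 8.31, 7.86 and 8.07 in CAG0. It fell 1.31-fold in CAG100 against CAG0 (-0.39 ± 0.12, adjusted p = 0.0356), where the highest CAG100 array (7.858) and the lowest CAG0 array (7.860) almost met. The call was lost without CAG100 replicate 2, 3 or 4 or CAG0 replicate 1, 2 or 4 (adjusted p = 0.0563 to 0.0964) and without the Akh-negative arrays (-0.44 ± 0.16, adjusted p = 0.115). CAA/G105 lay between on average, at -0.15 ± 0.12 against CAG0 (adjusted p = 0.464), and CAG100 was at -0.24 ± 0.12 against CAA/G105 (adjusted p = 0.166).

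The secreted axotactin gene axo, whose glial product lies along axons, read 11.63, 11.28, 11.43 and 11.26 in CAG100, 10.97, 10.53, 11.14 and 11.02 in CAA/G105, and 11.63, 11.43, 11.01 and 11.19 in CAG0. Only the difference between the repeats passed (0.48 ± 0.15, 1.4-fold, adjusted p = 0.0397). CAG0 overlapped both, and CAA/G105 against CAG0 was at -0.40 ± 0.15 (adjusted p = 0.112, but 0.043 without CAG0 replicate 3). The call between the repeats was lost without any one of CAG100 replicates 1 to 4, CAA/G105 replicates 1, 2 or 4 or CAG0 replicate 2 (adjusted p = 0.0507 to 0.109) and without the Akh-negative arrays (0.43 ± 0.19, adjusted p = 0.205). Among the other axo probe sets, the brighter gave 0.47 ± 0.14 between the repeats (adjusted p = 0.0338) and the dimmer 0.42 ± 0.18 (adjusted p = 0.126), while the last one read 2.05 to 2.07 on every array and was not tested. Over the 12 arrays the one used correlated with the brighter at r = 0.966 and with the dimmer at r = 0.753, as a description of probe sets that share each array's RNA.

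**Figure D3:**
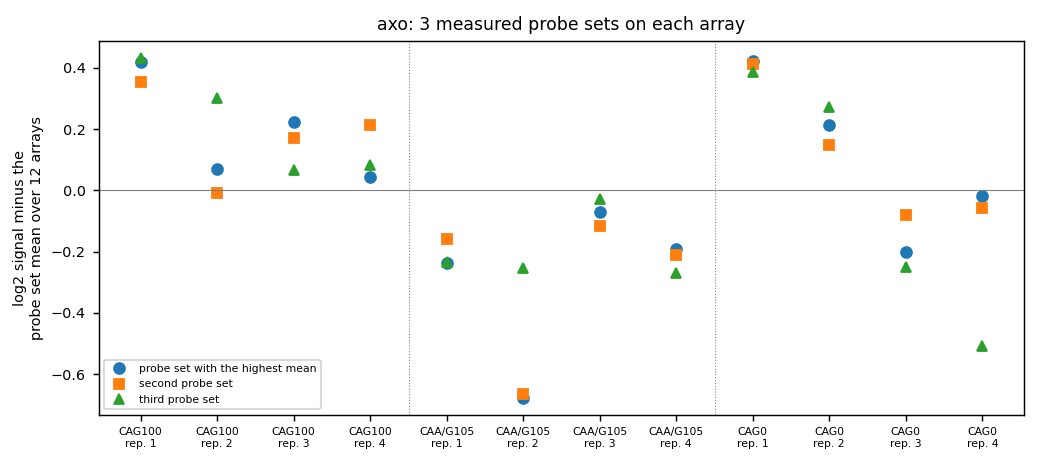
Log2 signal of the 3 tested axo probe sets minus each one's mean over the 12 arrays (vertical axis), by array and genotype. All 3 are below their mean on every CAA/G105 array, and they spread widely among the CAG0 arrays.

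The other 9 junction and adhesion genes passed in no comparison. They were the claudin genes sinu and kune, the neurexin gene Nrx-IV, the contactin gene Cont, the tricellular junction gene Gli, the FERM domain gene cora, the immunoglobulin genes Lac and Nrg, and nrv2, a sodium pump subunit gene. Gli spread widely, at 7.74 to 8.49 in CAG100, 7.89 to 8.47 in CAA/G105 and 7.80 to 8.23 in CAG0, and 0.23 ± 0.17 in CAA/G105 against CAG0 did not pass (adjusted p = 0.45). In sinu the CAG100 arrays (11.60 to 11.81) lay below those of CAA/G105 (11.82 to 11.88), at -0.16 ± 0.06 (adjusted p = 0.0703). This sinu difference passed without CAG100 replicate 4 (adjusted p = 0.0265) or CAG0 replicate 3 (0.0477) and with array weights (0.0436). The cora values of CAG0 were 13.17, 13.05, 12.77 and 13.11, and leaving out the lowest of them, replicate 3, made cora lower in CAG100 (-0.15 ± 0.04, adjusted p = 0.0145) and in CAA/G105 (-0.14 ± 0.04, adjusted p = 0.0256). With all 12 arrays the cora differences were -0.06 ± 0.07 (adjusted p = 0.562) and -0.05 ± 0.07 (adjusted p = 0.704). For the neuroglian gene Nrg a probe set of lower signal was below CAG0 in CAG100 (-0.20 ± 0.06, adjusted p = 0.0463), whereas the probe set used and another one gave -0.00 ± 0.05 (adjusted p = 0.956) and -0.02 ± 0.07 (adjusted p = 0.873).

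Surface glia supply the receptor moody and its regulator loco, which control the tightness of the barrier, the transporters Mdr65, Tret1-1 and Indy, and the gap junction innexins ogre and Inx2. In CAA/G105 against CAG0 all 7 had positive differences, from 0.02 (ogre) to 0.27 (moody), and 2 passed, where 5.49% of all tested probe sets were higher. The median of the 7 was 0.09, beside -0.01 over all tested probe sets. In CAG100 against the same CAG0 arrays their median was 0.10, beside -0.03 over all tested probe sets. The differences there ran from -0.14 (Tret1-1) to 0.20 (moody), and 1 was higher, where 7.86% of all tested probe sets were higher. In CAA/G105 against CAG0 the 12 tested genes of the related surface transport list did not share the positive direction. Their median was -0.04, with 0 higher and 2 lower, beside 5.49% and 7.72% of all tested probe sets. The G protein-coupled receptor gene moody read 11.76, 11.77, 11.80 and 11.94 in CAG100, 11.80, 11.86, 11.87 and 12.00 in CAA/G105, and 11.60, 11.39, 11.80 and 11.68 in CAG0. The lowest CAA/G105 array (11.801) barely cleared the highest CAG0 array (11.800). The rise in CAA/G105 was 1.2-fold (0.27 ± 0.08, adjusted p = 0.0463). It was lost on leaving out any one of CAG100 replicates 1 to 3, CAA/G105 replicates 1 to 4 or CAG0 replicates 1, 2 or 4 (adjusted p = 0.0523 to 0.125), and without the Akh-negative arrays (0.27 ± 0.10, adjusted p = 0.131). In CAG100 against CAG0 moody was at 0.20 ± 0.08 (adjusted p = 0.105, but 0.0305 without CAG0 replicate 3 and 0.0355 with array weights).

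Mdr65, an ABC transporter gene of the barrier that exports drugs, read 12.33, 12.39, 12.55 and 12.63 in CAG100, 12.63, 12.53, 12.62 and 12.54 in CAA/G105, and 12.40, 12.40, 12.24 and 12.35 in CAG0. CAA/G105 lay above CAG0 on every array, and CAG100 overlapped both. CAA/G105 exceeded CAG0 1.17-fold (0.23 ± 0.06, adjusted p = 0.0305). This was lost without CAA/G105 replicate 1 or 3 or CAG0 replicate 3 or 4 (adjusted p = 0.0616 to 0.0797), and without the Akh-negative arrays (0.22 ± 0.07, adjusted p = 0.076).

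The trehalose transporter gene Tret1-1, which serves the main blood sugar of insects, read 12.86, 12.70, 12.92 and 12.79 in CAG100. It read 13.13, 13.24, 13.11 and 13.01 in CAA/G105 and 12.85, 12.91, 13.05 and 13.03 in CAG0. Every CAG100 array lay below every CAA/G105 array, a 1.23-fold difference (-0.30 ± 0.06, adjusted p = 0.00462) that held under every alternative (adjusted p = 0.00257 to 0.0162). Against CAG0, which lay between, neither CAG100 (-0.14 ± 0.06, adjusted p = 0.144) nor CAA/G105 (0.16 ± 0.06, adjusted p = 0.114) passed.

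The innexin gene ogre read 12.70, 12.70, 12.79 and 12.77 in CAG100, 12.59, 12.66, 12.65 and 12.67 in CAA/G105, and 12.65, 12.63, 12.59 and 12.63 in CAG0. The CAG100 arrays were the highest 4, though by only 1.08-fold against CAG0 (0.11 ± 0.03, adjusted p = 0.0388), and the difference from CAA/G105 did not pass (0.10 ± 0.03, adjusted p = 0.064). The call against CAG0 was lost without CAG100 replicate 2, 3 or 4, CAA/G105 replicate 3 or 4 or any one CAG0 array (adjusted p = 0.0504 to 0.11), and without the Akh-negative arrays (0.11 ± 0.05, adjusted p = 0.158). The difference from CAA/G105 passed without CAG100 replicate 1 (adjusted p = 0.0446), with quantile normalization (0.0486) and with array weights (0.0376). Its partner Inx2 spanned 13.51 to 13.67, 13.36 to 13.62 and 13.37 to 13.65 in CAG100, CAA/G105 and CAG0 and did not pass. Neither did loco, an RGS protein gene, which was above CAG0 on every CAG100 array (0.10 ± 0.04, adjusted p = 0.13), nor the citrate carrier gene Indy, whose lowest array was CAG100 replicate 1 at 12.00, with the other 11 at 12.26 to 12.79.

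The arrays also held 62 tested genes of related lists for the same functions, none of them members. Of these 6 were higher and 7 lower in CAG100 than in CAG0, 3 higher and 3 lower in CAA/G105 than in CAG0, and 9 higher and 7 lower in CAG100 than in CAA/G105, beside 18.3%, 13.2% and 20.8% of all tested probe sets. Their median differences were -0.0034, 0.03 and -0.03. Without the Akh-negative arrays the counts were 3 and 5, 3 and 2, and 0 and 3, beside 10.6%, 9.54% and 10.3% of all tested probe sets.

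In the list of other astrocyte genes (11 tested) naz fell 1.53-fold in CAG100 against CAG0. It read 9.44, 9.50, 9.65 and 9.54 in CAG100, 10.24, 10.14, 10.25 and 10.08 in CAA/G105, and 10.16, 10.15, 10.10 and 10.18 in CAG0. CAG100 stood apart from both others (-0.62 ± 0.06, adjusted p = 3.7e-05, and -0.64 ± 0.06, adjusted p = 1.91e-05), under every alternative. The neurotransmitter-type transporter gene ine was higher in CAG100 than in CAG0 (0.34 ± 0.06, adjusted p = 0.00242). The secreted protease gene AdamTS-A was above CAG0 in CAA/G105 (1.02 ± 0.24, adjusted p = 0.015, and 0.0502 with no filter), at 5.78 to 6.92 in CAA/G105 and 5.04 to 5.47 in CAG0.

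Of 2 other tested innexins, Inx7 fell in both repeats, by 0.92 on the log2 scale in CAG100 (SE 0.19, adjusted p = 0.00618) and by 1.25 in CAA/G105 (SE 0.19, adjusted p = 0.000927), each against CAG0. Its mean signal was 7.01 ± 0.33 for CAG100, 6.68 ± 0.38 for CAA/G105 and 7.93 ± 0.14 for CAG0 (SD, n = 4 each), with no array of either repeat reaching a CAG0 array. Inx3 was higher in CAG100 than in CAG0 (0.23 ± 0.06, adjusted p = 0.0257) and than in CAA/G105 (0.30 ± 0.06, adjusted p = 0.00553). Without the Akh-negative arrays neither Inx3 difference passed (0.21, adjusted p = 0.129, and 0.25, adjusted p = 0.0941).

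The list of other transport genes, drawn up for surface glia, had 12 tested. In it Glut1, named for glucose transport, fell 1.31-fold in CAG100 (-0.39 ± 0.05, adjusted p = 0.000322) and 1.21-fold in CAA/G105 (-0.28 ± 0.05, adjusted p = 0.00355) against CAG0. Whether glia or neurons supplied the Glut1 signal was not tested. Its arrays read 13.13 to 13.32 in CAG100, 13.24 to 13.40 in CAA/G105 and 13.52 to 13.69 in CAG0, with no overlap of either repeat with CAG0. The ABC transporter gene Mdr49 was higher in CAG100 than in CAA/G105 (0.52 ± 0.11, adjusted p = 0.0067). The organic anion transporter gene Oatp74D fell in CAA/G105 against CAG0 (-0.46 ± 0.11, adjusted p = 0.0127), and Oatp33Ea was higher in CAG100 than in CAG0 (0.27 ± 0.07, adjusted p = 0.0141). Without the Akh-negative arrays Mdr49 (0.58, adjusted p = 0.0502), Oatp74D (-0.39, adjusted p = 0.0592) and Oatp33Ea (0.25, adjusted p = 0.122) did not pass. Among 6 other engulfment genes only the adaptor gene Crk passed, higher in CAG100 than in CAG0 (0.26 ± 0.04, adjusted p = 0.000562), in CAA/G105 than CAG0 (0.13 ± 0.04, adjusted p = 0.0471) and in CAG100 than in CAA/G105 (0.13 ± 0.04, adjusted p = 0.0274). The last 2 Crk results failed under 12 and 10 of the alternatives, and the first under none.

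Of 13 other septate junction genes, 3 were lower in CAG100 than in CAG0 and none higher, beside 10.4% and 7.86% of all tested probe sets: l(2)gl, a cell polarity gene (-0.58 ± 0.14, adjusted p = 0.0121), cold (-0.23 ± 0.06, adjusted p = 0.0258) and pasi2 (-0.21 ± 0.06, adjusted p = 0.0251). None of the 13 passed in CAA/G105 against CAG0, beside 13.2% of all tested probe sets. The gene cold was also lower in CAG100 than in CAA/G105 (-0.33 ± 0.06, adjusted p = 0.0033). Without the Akh-negative arrays, cold (-0.255, adjusted p = 0.0727) and pasi2 (-0.255, adjusted p = 0.0596) did not pass against CAG0. In glial metabolism, 12 tested genes included Tps1, a trehalose synthesis gene that was higher in CAG100 than in CAG0 (0.84 ± 0.23, adjusted p = 0.0258). The lipocalin gene NLaz was higher as well (0.37 ± 0.07, adjusted p = 0.00457) and the glycolytic gene Pglym78 lower (-0.32 ± 0.07, adjusted p = 0.0115). Without the Akh-negative arrays Pglym78 passed (-0.39, adjusted p = 0.0122), and Tps1 (0.65, adjusted p = 0.123) and NLaz (0.37, adjusted p = 0.0537) did not. None of 6 glial fate and growth factor genes passed against CAG0 in either repeat, beside 18.3% and 13.2% of all tested probe sets. Of these, pros and aop, both transcription factor genes, were lower in CAG100 than in CAA/G105 (-0.21 ± 0.06, adjusted p = 0.0316, and -0.21 ± 0.06, adjusted p = 0.03). Without the Akh-negative arrays neither passed (-0.17, adjusted p = 0.0999, and -0.22, adjusted p = 0.159).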

How the data were processed

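Total RNA of dissected brains was amplified as cDNA, labelled with biotin and hybridised to 1 single-colour Affymetrix array per sample, per the labels' protocols. The deposited log2 values were made by the authors with GCRMA and Partek, per the submitters' processing notes, which give no versions or settings. They were used as deposited. GCRMA normalizes across arrays, so a shift common to most genes would not show. With 4 arrays in each genotype, precision is limited by their number.

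Of 18952 probe sets, 183 controls were left out and 13647 of the rest name 1 gene in the platform annotation, with symbols updated through a gene table. The test covered the 8966 probe sets with a signal of log2 4 or more in 4 or more of the 12 arrays. One linear model with 3 genotype means over 12 arrays was fitted in limma 3.58.1 (R 4.3.3) with a variance trend, and p-values were adjusted by the Benjamini-Hochberg method. The script was tested on simulated data. Samples were grouped by title. The series text calls the replicates independent.

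The members, related lists and tests were chosen with earlier results of these data known. All members are named, with array values for those that passed, and up to 3 genes of each related list with the largest difference among those that passed, of which some were left out. The second Nrg probe set, Oatp33Ea and the named markers of other tissue are outside that rule. Alternatives covered the filter, scaling, variance model, arrays in the fit, array weights, a replicate block, the threshold, the probe set and leaving out each array. Leaving out the 3 arrays without Akh signal was added after seeing the data. No sequences or coordinates are given.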

Additional observations from a re-analysis of the deposited data

Results flagged for a closer look

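In 6 of 87 groups of 4 arrays, 1 array lay far from the other 3, by a gap test that chance passes in about 1 of 20 groups. All 6 gaps are small. For htl, CAG0 replicate 3 read 11.16 against 11.08 to 11.09 on the others. For nrv2, CAA/G105 replicate 1 read 14.56 against 14.63 to 14.64. For sinu, CAA/G105 replicate 2 read 11.88 against 11.82 on the others. For loco, CAA/G105 replicate 4 read 11.75 against 11.84 to 11.86, and CAG0 replicate 2 read 11.68 against 11.75 to 11.76. For drpr, CAG0 replicate 1 read 13.28 against 13.19 to 13.20. Over leaving out each array in turn, this one included, drpr stayed lower than in CAG0, at adjusted p = 0.000587 to 0.00253 in CAG100 and 0.00763 to 0.0332 in CAA/G105.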

How the results depend on the processing

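Of the 16 member results that passed, 5 passed under every alternative: Shark, drpr and alrm in CAG100 against CAG0, and alrm and Tret1-1 in CAG100 against CAA/G105. No result changed sign where it passed. Of 71 that did not pass, 62 passed under no alternative. Leaving out 1 array gave 3 to 6 changed members in CAG100 against CAG0, 2 to 7 in CAA/G105 against CAG0 and 4 to 7 in CAG100 against CAA/G105, beside 5, 5 and 6. Of all 8966 tested probe sets, 1119 to 1949, 874 to 1529 and 1353 to 2156 then passed, beside 1639, 1184 and 1869. At an adjusted p under 0.01 the counts were 3, 1 and 3, by the stricter threshold itself, beside 797, 642 and 979 of 8966 probe sets. With only the arrays of the 2 genotypes compared, 3 passed in CAG100 against CAG0, beside 1354 of 8966 probe sets. With no filter 3 passed in CAA/G105 against CAG0, beside 928 of the 18769 probe sets then tested. Without the 3 Akh-negative arrays the counts were 3, 1 and 2, beside 10.6%, 9.54% and 10.3% of all tested probe sets. On these 9 arrays 10 of the 16 results did not pass. With no filter ogre (adjusted p = 0.057), Mdr65 (0.0657), vari (0.083), repo between the repeats (0.0834), axo (0.0892) and moody (0.0976) did not pass. With only the 2 genotypes compared, ogre (0.0721), vari (0.0727) and moody (0.0875) did not, and without a variance trend axo (0.0526), moody (0.0606), ogre (0.0746) and repo between the repeats (0.103) did not. Quantile normalization ended the calls of moody (0.06) and repo between the repeats (0.061), and shifting all arrays to the same median those of drpr in CAA/G105 (0.0861) and repo between the repeats (0.132). With replicate number as a block the counts were 4, 5 and 5, beside 1466, 1090 and 1730 of 8966 probe sets. Under the block 3 results no longer passed (Mdr65, ogre and repo between the repeats) and wrapper did. Deviations of same-numbered arrays of different genotypes correlated at r = -0.26 to 0.39. With 4 arrays in each genotype, these values cannot settle whether the numbers pair the samples.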
